A study of Homo sapiens with 2 samples.

Results

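The genes described here encode the subunits of respiratory complexes II and III and of ATP synthase, with cytochrome c, in human HEK293 cells with and without the endoplasmic reticulum kinase PERK. They were chosen by gene name in the 2 deposited gene tables, as SDHA to SDHD, CYC1, CYCS, ATPIF1, USMG5, and every name beginning with UQCR or with ATP5 and a letter. The rule found 38 rows. The pseudogenes ATP5EP2 and UQCRBP1 were left out, which left 36 genes of 25277 rows, and all 36 reached 1 FPKM (fragments per kilobase of transcript, scaled to the mapped fragments of the library) in at least 1 sample.

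Both samples were HEK293, an established human embryonic kidney line. The WT sample was wild-type at the PERK locus. The PERK-KO sample carried a CRISPR/Cas9 disruption of EIF2AK3, the gene of PERK, in cells grown out from single cells, and which guide RNA and which clone were sequenced is not given in the sources used here. Both cultures were kept for 12 h in OXPHOS medium, which lacks glucose and supplies galactose and pyruvate, so that the cells had to rely on mitochondrial respiration, and polyadenylated RNA was then sequenced. The comparison asks which nuclear genes of mitochondrial respiration differ in level without PERK. With 1 sample per genotype there is no replicate check, no test was made, and an effect of PERK loss cannot be told apart from any other difference between the edited and the parent cells. The deposited confidence limits cover the counting and assignment of fragments within a library only.

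Complex II oxidises succinate to fumarate and passes the electrons to coenzyme Q, complex III moves them from reduced coenzyme Q to cytochrome c while pumping protons across the inner membrane, and ATP synthase lets the protons return through a rotating ring of c subunits that drives the catalytic F1 head. The genes listed here are nuclear, and the mitochondrial genome supplies cytochrome b of complex III and subunits a and A6L of ATP synthase, which are outside the list. In brown fat, the tissue the study set out from, the chain is abundant and ATP synthase is scarce relative to it.

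The tables held a transcript of EIF2AK3 in both samples, at 5.61 FPKM in WT cells (limits 5.11 to 6.12) and 3.89 FPKM in PERK-KO cells (3.44 to 4.34). A disrupted reading frame need not remove the mRNA, so this level is a weak check of the genotype. Of 11 genes often seen in HEK293 cells, 8 in the WT sample and 10 in the PERK-KO sample reached 1 FPKM. The largest ratio between the samples among them was in IRS4, at 0.121 FPKM in WT cells and 27.1 FPKM in PERK-KO cells, and NEFM was at 0.662 and 5.21 FPKM. Markers of fibroblasts, leukocytes, hepatocytes and adipocytes summed to between 0 and 10.4 FPKM per list in WT cells and between 0.326 and 6.80 FPKM in PERK-KO cells. ALB, CD3E and UCP1 were at 0 in both samples. The part of these differences in the results below was not tested. Total fragment numbers are not in the tables. The widths of the limits put the depth of the PERK-KO library at 87.7% of that of the WT library.

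Most of these mRNAs were at a lower level in PERK-KO cells. Of the 36 genes, 8 had a PERK-KO level more than 1.5-fold below the WT level (22.2%), against 7.54% of the 14594 genes that reached 1 FPKM in a sample, and 0 were more than 1.5-fold higher, against 10.1%. The confidence limits of the 2 samples were apart, with the lower level in PERK-KO cells, for 28 genes (77.8%), against 18.7% of all genes. They were apart in the other direction for 2 genes (5.56%), UQCRC2 and CYC1, against 26.1% of all genes. Limits are relatively narrower where more fragments are counted. The median WT level was 130 FPKM over the 36 genes and 9.41 FPKM over all genes, so the shares with limits apart are not alike in this respect. The median log2 fold change, PERK-KO over WT, was -0.40 over the 36 genes and 0.04 over all genes. The 8 and the 28 genes include the row ATP5J2-PTCD1, a readthrough into a neighbouring gene, which reached 1 FPKM in the WT sample only. Without it 7 of 35 genes were more than 1.5-fold lower, 27 had limits apart in that direction, and the median was -0.39. The 7 structural subunits past 1.5-fold were UQCRQ and UQCR11 of complex III and ATP5D, ATP5E, ATP5H, ATP5I and USMG5 of ATP synthase. ATP5D lay just past that limit at 1.51-fold, and ATP5G2 at 1.44-fold and SDHA at 1.43-fold lay just within it.

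Transcript length and the scaling of the tables moved these values. Among all other genes with a known length, the median log2 fold change was -0.39 for transcripts of 500 to 1000 bases and 0.23 for those above 4000 bases. With a running median over the 200 genes nearest in length subtracted, the median over the 33 genes with a known length was -0.06. Of these 33 genes 2 stayed more than 1.5-fold lower, UQCRQ and a readthrough row. The share of all genes more than 1.5-fold lower after this subtraction was not worked out. The count of 2 thus has no background beside it. The FPKM of all rows summed to 896741 in the WT sample and 779062 in the PERK-KO sample. Setting these sums equal would add 0.20 to every log2 fold change, which gave 6 genes more than 1.5-fold lower, the readthrough row among them, and 0 higher. UQCR11, at -0.51, and ATP5D, at -0.39, were then no longer past that limit, and CYCS, ATP5B, ATP5F1, ATP5J and ATP5SL turned to a higher level in PERK-KO cells. Over all genes the same scaling gave 557 lower and 2915 higher in place of 1100 and 1481.

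**Figure D1:**
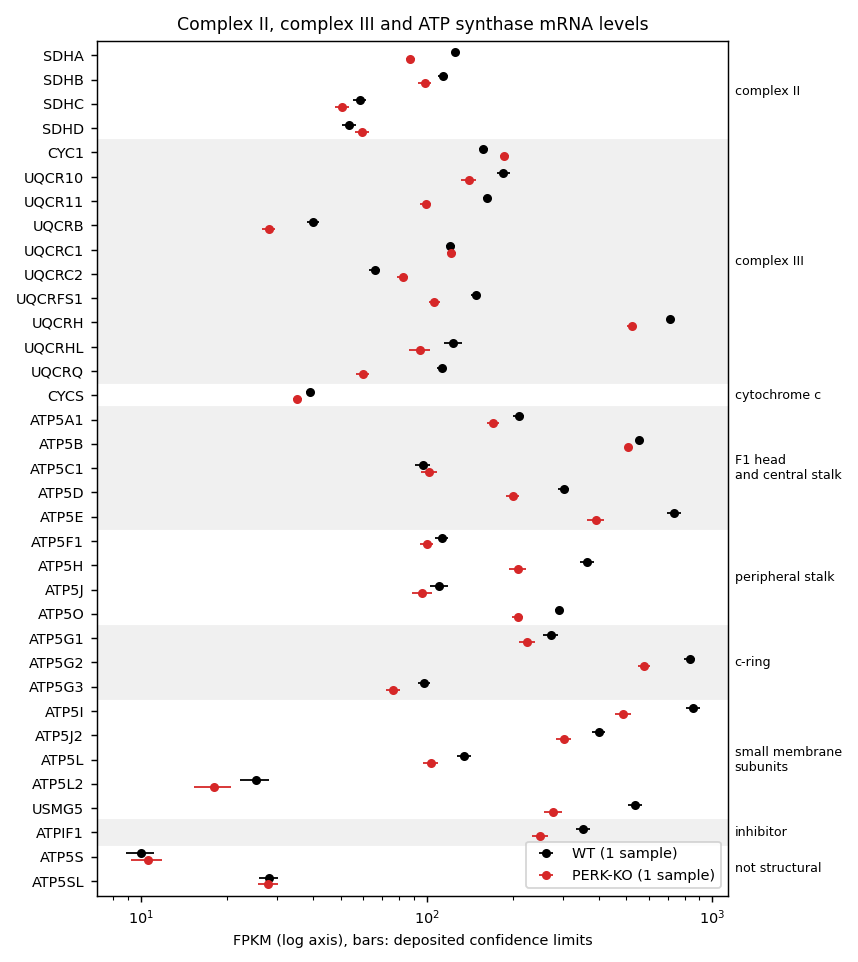
Level of each mRNA in the WT sample (black) and the PERK-KO sample (red), in FPKM on a log axis, by role in the complexes. Bars are the deposited confidence limits, and the readthrough row ATP5J2-PTCD1, at 3.75 and 0.000363 FPKM, is not drawn. The red point lies left of the black point for 29 of the 35 genes drawn.

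In complex II, 3 of 4 subunit mRNAs were lower in PERK-KO cells with limits apart and SDHD was not. SDHA, the flavoprotein that binds succinate, was at 126 FPKM in WT cells (limits 122 to 129) and 87.7 FPKM in PERK-KO cells (84.7 to 90.7). This was 1.43-fold lower in PERK-KO cells, with a log2 fold change of -0.52 (SE of counting 0.03). SDHB, the iron-sulphur subunit that carries the electrons onward, was at 114 FPKM in WT cells (109 to 119) and 98.4 FPKM in PERK-KO cells (93.5 to 103). SDHC and SDHD anchor the complex in the membrane and bind coenzyme Q with SDHB. SDHC was at 58.4 FPKM in WT cells (55.4 to 61.4) and 50.5 FPKM in PERK-KO cells (47.6 to 53.3), whereas SDHD was at 53.5 FPKM (50.5 to 56.6) and 59.4 FPKM (56.0 to 62.8), with overlapping limits. The 4 log2 fold changes ran from -0.52 to 0.15, with a median of -0.21, and 0 of 4 passed 1.5-fold. With the sums of the tables set equal the median was -0.01, so that the direction for complex II rests on the scaling.

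SDHA has several near-copies, and reads from such copies can be divided wrongly between them. The pseudogene row SDHAP3 was at 58.9 FPKM in WT cells (55.4 to 62.4) and 35.2 FPKM in PERK-KO cells (32.3 to 38.1), and 42.7% of its windows of 50 bases occur unchanged in the SDHA transcript. SDHAP1 and SDHAP2 share 8.89% and 9.32% of such windows with SDHA. Their levels, 12.9 and 12.04 FPKM in WT cells, were within 0.03 of no change on the log2 scale.

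Complex III held both the highest and some of the lowest fold changes of the list. The core proteins UQCRC1 and UQCRC2, which form the matrix-facing base of the complex and resemble processing peptidases, were not lower. UQCRC1 was at 121 FPKM in WT cells (117 to 125) and 122 FPKM in PERK-KO cells (117 to 126), a log2 fold change of 0.01. UQCRC2 was at 65.7 FPKM in WT cells (62.7 to 68.7) and 82.3 FPKM in PERK-KO cells (78.7 to 85.8), a log2 fold change of 0.32 and the highest of all 36 genes. CYC1, the cytochrome c1 that hands electrons to cytochrome c, was at 158 FPKM in WT cells (152 to 164) and 187 FPKM in PERK-KO cells (180 to 193). UQCRFS1, the Rieske iron-sulphur protein, was the exception among the catalytic and core subunits, at 148 FPKM in WT cells (143 to 154) and 106 FPKM in PERK-KO cells (101 to 111).

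The small subunits, which surround the catalytic core, were all lower with limits apart. UQCRQ, which lies beside cytochrome b, was at 113 FPKM in WT cells (109 to 117) and 59.8 FPKM in PERK-KO cells (56.6 to 62.9). The difference was 1.89-fold, with a log2 fold change of -0.92 (SE of counting 0.05). UQCR11 was at 163 FPKM in WT cells (158 to 168) and 99.4 FPKM in PERK-KO cells (95.0 to 104), a difference of 1.64-fold. These 2 genes, UQCRQ at chr5:132202319-132204536 and UQCR11 at chr19:1597154-1605483 in hg19, were the only complex III genes past 1.5-fold. UQCRH, the acidic hinge protein that helps cytochrome c1 meet cytochrome c, was the most abundant mRNA of the complex at 712 FPKM in WT cells (691 to 733) and 523 FPKM in PERK-KO cells (504 to 542). UQCR10 was at 185 FPKM in WT cells (176 to 195) and 140 FPKM in PERK-KO cells (132 to 149). UQCRB, a subunit near the coenzyme Q site, was at 40.0 FPKM (38.1 to 41.8) and 28.0 FPKM (26.6 to 29.5). The median log2 fold change was -0.51 over the 5 small subunits UQCRH, UQCRB, UQCRQ, UQCR10 and UQCR11, and 0.13 over UQCRC1, UQCRC2, CYC1 and UQCRFS1. The limits were apart towards the lower level in PERK-KO cells in 5 of 5 of the small subunits and in 1 of 4 of the others. This grouping follows the known structure of the complex, and the small subunits also have the shorter coding regions. With the running median over transcript length subtracted, UQCRQ was at -0.77 and UQCR11 at -0.50, but UQCRH at -0.03 and UQCR10 at -0.05. UQCRB had no known length. By fragment equivalents, a measure from the limits given further on, UQCRB was at -0.13 in place of -0.51 and UQCR10 at -0.18 in place of -0.40. The median was then -0.44 over the 5 small subunits and 0.12 over the 4 others.

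UQCRHL, a retrotransposed copy of UQCRH, was at 124 FPKM in WT cells (115 to 133) and 94.5 FPKM in PERK-KO cells (86.4 to 103). It stood at 17.4% of the UQCRH level in the WT sample and 18.1% in the PERK-KO sample, and 53.7% of its 50-base windows occur unchanged in the UQCRH transcript, so its value may hold reads of the parent gene. CYCS, the mobile carrier that takes electrons from complex III to complex IV and also triggers apoptosis when released, was at 39.1 FPKM in WT cells (37.9 to 40.3) and 35.3 FPKM in PERK-KO cells (34.1 to 36.5). Its limits were apart, but the difference was 1.11-fold.

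**Figure D2:**
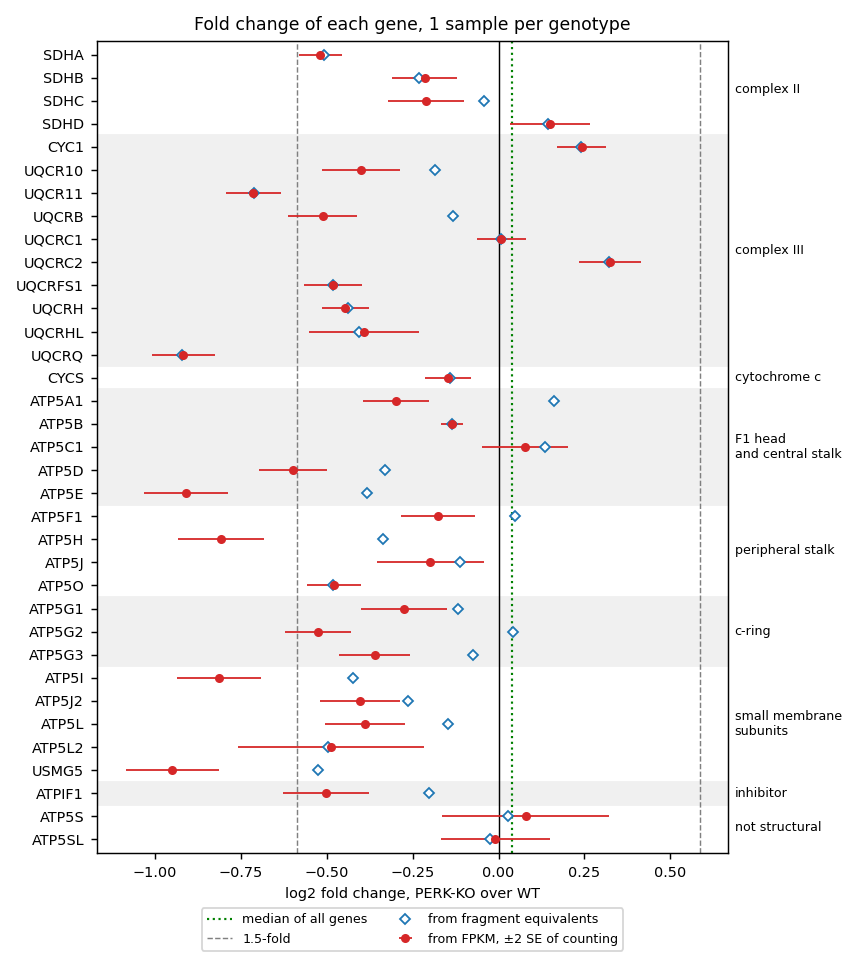
Log2 fold change of each gene, PERK-KO over WT, from the deposited FPKM (red, bars ±2 SE of counting) and from fragment equivalents derived from the limits (blue diamonds). Dashed lines mark 1.5-fold and the green dotted line the median of all genes, 0.04. UQCRC2 and CYC1 lie right of all others from FPKM at 0.32 and 0.24, and the diamonds of USMG5, ATP5I, ATP5H and ATP5E lie within 1.5-fold.

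In the F1 head of ATP synthase the catalytic subunits differed little. ATP5B, the β subunit that holds the catalytic sites, was at 555 FPKM in WT cells (547 to 563) and 505 FPKM in PERK-KO cells (497 to 514), a difference of 1.10-fold. ATP5A1, the α subunit that alternates with it, was at 210 FPKM in WT cells (200 to 219) and 170 FPKM in PERK-KO cells (162 to 178). ATP5C1, the γ shaft that turns inside the head, was at 96.8 FPKM (90.9 to 103) and 102 FPKM (95.8 to 108), with overlapping limits. The small foot of the central stalk stood apart from these. ATP5E, the ε subunit at chr20:57603733-57607422, was at 734 FPKM in WT cells (694 to 773) and 391 FPKM in PERK-KO cells (365 to 416), a difference of 1.88-fold. ATP5D, the δ subunit at chr19:1241749-1244824, was at 302 FPKM in WT cells (289 to 315) and 200 FPKM in PERK-KO cells (189 to 210). The pseudogene row ATP5EP2, at 112 FPKM in WT cells (101 to 124) and 63.3 FPKM in PERK-KO cells (53.9 to 72.8), kept a like ratio to ATP5E, 15.3% and 16.2% of its level, and shares 14.02% of its 50-base windows with it.

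The peripheral stalk, which keeps the head from turning with the shaft, was lower in PERK-KO cells by unequal amounts. ATP5H, the d subunit at chr17:73034955-73043074, was at 365 FPKM in WT cells (345 to 385) and 208 FPKM in PERK-KO cells (195 to 222), a difference of 1.75-fold. ATP5O, the subunit that clasps the top of the head and confers oligomycin sensitivity, was at 290 FPKM in WT cells (280 to 300) and 208 FPKM in PERK-KO cells (199 to 217). ATP5F1, the long b subunit, was at 113 FPKM (107 to 119) and 99.96 FPKM (94.6 to 105). ATP5J, the F6 subunit, was at 111 FPKM (103 to 119) and 96.4 FPKM (88.6 to 104), with overlapping limits.

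The genes ATP5G1, ATP5G2 and ATP5G3 encode the c subunit of the rotating ring. Their products differ in the import peptide, which is removed on entry into mitochondria, and give the same mature protein. The last 75 codons of each, which encode the mature part, are shown 5′ to 3′ on the coding strand to show how far reads of the 3 genes can be told apart, with capitals at the positions where the 3 genes are not all alike. With the introns between them, they lie at chr17:46972584-46973128 (ATP5G1), chr12:54059101-54063044 (ATP5G2) and chr2:176043019-176043897 (ATP5G3) in GRCh37.
ATP5G1: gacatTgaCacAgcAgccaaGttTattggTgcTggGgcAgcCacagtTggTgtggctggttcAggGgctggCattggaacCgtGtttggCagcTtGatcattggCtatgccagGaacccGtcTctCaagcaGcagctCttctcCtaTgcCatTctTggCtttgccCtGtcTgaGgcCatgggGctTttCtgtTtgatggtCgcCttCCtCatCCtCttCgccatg
ATP5G2: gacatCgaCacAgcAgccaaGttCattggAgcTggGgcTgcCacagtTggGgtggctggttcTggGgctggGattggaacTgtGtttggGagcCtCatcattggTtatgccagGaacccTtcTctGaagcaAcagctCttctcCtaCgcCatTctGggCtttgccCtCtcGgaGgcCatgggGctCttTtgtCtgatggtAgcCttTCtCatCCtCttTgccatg
ATP5G3: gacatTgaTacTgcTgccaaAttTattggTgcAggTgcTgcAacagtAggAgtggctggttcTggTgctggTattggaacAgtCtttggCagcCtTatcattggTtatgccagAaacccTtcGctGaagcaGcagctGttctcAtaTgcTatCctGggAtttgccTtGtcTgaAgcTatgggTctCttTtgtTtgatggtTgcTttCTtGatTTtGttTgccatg
Of the 225 positions 173 (76.9%) were alike in all 3 genes, and 47 of the other 52 fell at the third position of a codon. The longest run alike in all 3 was 11 bases. Between ATP5G1 and ATP5G2, and between ATP5G2 and ATP5G3, it was 17 bases. Only a stretch of this part longer than 17 bases is thus sure to differ between any 2 of the genes. ATP5G2 was the most abundant, at 832 FPKM in WT cells (794 to 869) and 578 FPKM in PERK-KO cells (550 to 605). ATP5G1 was at 271 FPKM in WT cells (256 to 287) and 224 FPKM in PERK-KO cells (210 to 239). ATP5G3 was at 98.0 FPKM (93.3 to 103) and 76.3 FPKM (72.3 to 80.3). All 3 were lower in PERK-KO cells with limits apart, and their sum went from 1201 to 878 FPKM. By fragment equivalents, a measure from the limits given further on, ATP5G2 was at a log2 fold change of 0.04 in place of -0.53, and the median of the 3 was -0.07 in place of -0.36. ATP5G2 supplied 69.2% of that sum in the WT sample and 65.8% in the PERK-KO sample, ATP5G1 22.6% and 25.5%, and ATP5G3 8.16% and 8.69%, so the order of the 3 genes was the same in both samples.

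The small membrane subunits, which sit around the ring and join ATP synthase into dimers at the edges of cristae, were lower with limits apart in 5 of 5 genes, and 2 of them, USMG5 and ATP5I, passed 1.5-fold. USMG5, also known as DAPIT and located at chr10:105148809-105156270, was at 536 FPKM in WT cells (505 to 567) and 278 FPKM in PERK-KO cells (257 to 298). The difference of 1.93-fold, a log2 fold change of -0.95 (SE of counting 0.07), was the largest of the 35 genes other than the readthrough. ATP5I, the e subunit at chr4:666225-668127, was the most abundant of the 36 genes in WT cells at 856 FPKM (810 to 902) and was at 487 FPKM in PERK-KO cells (454 to 519), a difference of 1.76-fold. ATP5J2, the f subunit, was at 399 FPKM in WT cells (378 to 420) and 302 FPKM in PERK-KO cells (283 to 320). ATP5L, the g subunit, was at 135 FPKM (128 to 142) and 103 FPKM (97.1 to 110). ATP5L2, a retrotransposed copy of ATP5L that shares 2.53% of its 50-base windows with it, was at 25.2 FPKM (22.3 to 28.1) and 18.0 FPKM (15.3 to 20.6). ATPIF1, the inhibitor that blocks ATP hydrolysis when the proton gradient collapses, was at 353 FPKM in WT cells (333 to 373) and 249.5 FPKM in PERK-KO cells (233 to 266), a difference of 1.42-fold. C14orf2, a small protein of the same membrane part that the name rule does not reach, was at 173 FPKM in WT cells (161 to 184) and 122 FPKM in PERK-KO cells (113 to 131).

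Over the 18 ATP synthase genes, ATPIF1 included, 5 were more than 1.5-fold lower, 0 were higher, and 16 had limits apart towards the lower level in PERK-KO cells. The median log2 fold change was -0.44. By fragment equivalents it was -0.17 and 0 passed 1.5-fold. By position in the enzyme the medians were -0.30 for the F1 head and central stalk (5 genes) and -0.34 for the peripheral stalk (4 genes). They were -0.36 for the ring (3 genes) and -0.49 for the small membrane subunits (5 genes). The last of these is the value of ATP5L2, the retrotransposed copy of ATP5L. The other small membrane subunits ran from -0.95 to -0.39. By fragment equivalents the medians were -0.14, -0.22, -0.07 and -0.42 in the same order, ATP5L2 included, so that the ring was nearest 0.

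ATP5S, ATP5SL and ATP5J2-PTCD1 carry names of the family and are not structural subunits. ATP5S, a coupling factor, was at 9.99 FPKM in WT cells (8.83 to 11.1) and 10.5 FPKM in PERK-KO cells (9.26 to 11.8). ATP5SL, which takes part in the assembly of complex I, was at 28.1 FPKM (26.0 to 30.2) and 27.9 FPKM (25.6 to 30.1). The limits of both overlapped. ATP5J2-PTCD1, a readthrough from ATP5J2 into its downstream neighbour at chr7:99014362-99063824, was at 3.75 FPKM in WT cells (3.26 to 4.24) and at 0.000363 FPKM in PERK-KO cells (0 to 0.0216). The latter value is at 0 within its limits and no fold is given. The row shares its sequence with ATP5J2 and with PTCD1, which was at 10.99 FPKM in WT cells and 13.3 FPKM in PERK-KO cells, so the division of reads between the 3 rows is uncertain.

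Another measure came from the deposited limits. Their half-width is 2 SD, so the value divided by its SD and squared gives the number of fragments that would carry that counting error, called fragment equivalents here. In WT cells these numbered 237 to 17841 per gene, with a median of 1500. For 16 of the 36 genes the ratio of equivalents per FPKM between the samples lay within 0.03, on the log2 scale, of the depth ratio of the libraries, and for these the folds by both measures differ by at most that by construction. UQCRQ, UQCR11, SDHA, UQCRFS1, UQCRH, UQCRC2, CYC1, ATP5B and ATP5O are among these 16, so the measure adds nothing to their FPKM folds. Of the other 20 genes, 18 had a ratio above the depth ratio, so their folds were shifted upwards, and ATP5S and the readthrough row had a lower one.

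The genes of ATP synthase held most of those gaps. By fragment equivalents the log2 fold change was -0.38 in place of -0.91 for ATP5E, -0.33 in place of -0.81 for ATP5H, -0.42 in place of -0.81 for ATP5I and -0.52 in place of -0.95 for USMG5. It was 0.04 in place of -0.53 for ATP5G2 and 0.16 in place of -0.30 for ATP5A1. Over the 36 genes the median was -0.17, and 3 were more than 1.5-fold lower, namely the readthrough row and UQCRQ and UQCR11, whose values are those from FPKM, while over all genes the median was 0.06 and 897 were lower (6.21%). Limits in such tables also carry the uncertainty of assigning reads to transcripts, and the part of that in the gap was not tested.

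Length varied with the fold across the genes, as it did across the tables. Over the 32 genes with a known transcript length, Pearson's r between log2 length and log2 fold change was 0.39 and Spearman's rho 0.44. Over 35 genes the correlation of the log2 fold change with the mean log2 level was -0.45 by Pearson and -0.47 by Spearman. All points come from the same 2 libraries, so these are descriptions. In the class of 500 to 1000 bases the 11 genes had a median of -0.49, beside -0.39 for 801 other genes, and 9 of the 11 lay below the latter. In the class of 1000 to 2000 bases the 12 genes had a median of -0.07 beside -0.17 for 2485 other genes, and 5 of the 12 lay below it. In the class of 2000 to 4000 bases, which holds SDHA, UQCRFS1, ATP5G3, ATP5F1, ATP5S and the readthrough row, the median was -0.42 beside 0.03. At equal FPKM a longer transcript yields more fragments. UQCRFS1 (3086 bases) had 3060 equivalents at 148 FPKM in WT cells. CYC1 (1191 bases) had 3214 at 158 FPKM, and SDHA (2693 bases) 5494 at 126 FPKM. ATP5G3 (2587 bases) had 1739 at 98.0 FPKM, and ATP5F1 (2628 bases) 1514 at 113 FPKM. The lengths of UQCRFS1, ATP5G3 and ATP5F1 may thus differ from those behind the FPKM. Their class and their length-corrected values are uncertain. With the running median over length subtracted, UQCRQ was at -0.77, SDHA at -0.54, UQCRFS1 at -0.53 and UQCR11 at -0.50, whereas USMG5 was at -0.48, ATP5I at -0.41 and ATP5H at -0.38, and CYC1 and UQCRC2 were at 0.51 and 0.39.

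The promoters of 25 of the 36 genes were found in RefSeq (GRCh38.p14), each as 250 bases before to 50 after the start. The letters CCGGAAG, the core recognised by the ETS factor GABP (also called NRF2), were found on either strand in 11 of 25 genes (44%), against 22.0% of 10674 expressed genes. A gene is counted here if any promoter listed for it holds the letters. Counted singly, 10.3% of all 35116 promoters held them, which is not the same unit. GCGCATG, bound by NRF1, was found in 7 (28%), against 8.54% of expressed genes, and in ATP5C1 and SDHD its matches on the 2 strands overlap. AAGATGG, bound by YY1, was found in 8 (32%), against 9.28%. GABP, NRF1 and YY1 are known regulators of nuclear genes for respiration. The median log2 fold change was -0.45 for the 11 genes with CCGGAAG and -0.34 for the 14 without it, and the ranges overlapped, from -0.95 to 0.15 and from -0.91 to 0.32. For NRF1 the medians were -0.20 with and -0.46 without the letters, and for YY1 -0.21 and -0.48.

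The 150 bases upstream of the start are shown for the genes of complex III with the lowest and the highest fold and for ATP5H and UQCR11, 5′ to 3′ on the strand of the gene, with CCGGAAG or its reverse complement in capitals. In GRCh38.p14 they lie at chr5:132866492-132866641 (UQCRQ, plus strand), chr19:1605463-1605612 (UQCR11, minus strand), chr17:75046970-75047119 (ATP5H, minus strand) and chr16:21953211-21953360 (UQCRC2, plus strand).
UQCRQ: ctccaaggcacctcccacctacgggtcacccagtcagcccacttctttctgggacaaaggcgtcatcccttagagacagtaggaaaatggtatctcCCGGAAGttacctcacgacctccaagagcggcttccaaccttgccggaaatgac
UQCR11: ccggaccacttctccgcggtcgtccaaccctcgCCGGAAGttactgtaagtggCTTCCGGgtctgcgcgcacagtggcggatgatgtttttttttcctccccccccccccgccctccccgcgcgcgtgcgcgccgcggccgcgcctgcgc
ATP5H: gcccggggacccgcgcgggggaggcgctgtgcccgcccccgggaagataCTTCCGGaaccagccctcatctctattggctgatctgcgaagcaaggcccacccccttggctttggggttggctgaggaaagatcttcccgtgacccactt
UQCRC2: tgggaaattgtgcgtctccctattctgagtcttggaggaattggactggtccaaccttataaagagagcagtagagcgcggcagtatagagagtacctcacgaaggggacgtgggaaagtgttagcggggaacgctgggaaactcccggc
UQCR11 held the letters at 117 and 97 bases before the start, ATP5H at 101 and UQCRQ at 54, and UQCRC2 held none in this window. The promoters shown do not stand for the whole set. SDHD, at a log2 fold change of 0.15, held the letters 77 bases before the start, and ATP5E, at -0.91, was among the genes without them. A match describes these letters only and no binding was measured here. GABPA, which encodes the DNA-binding subunit of GABP, was itself at 8.16 FPKM in WT cells (7.52 to 8.80) and 9.29 FPKM in PERK-KO cells (8.56 to 10.03), with overlapping limits.

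Many of these genes start close to another gene on the other strand. Within 1000 bases, 12 had such a protein-coding neighbour, and in 11 pairs the neighbour reached 1 FPKM. The respiratory gene had the lower log2 fold change in 8 of the 11 pairs, and the medians were -0.40 for the respiratory genes and 0.10 for the neighbours. USMG5 and PDCD11, a factor of ribosomal RNA processing, start 151 bases apart. PDCD11 was at 18.6 FPKM in WT cells (17.8 to 19.4) and 26.6 FPKM in PERK-KO cells (25.6 to 27.6), 1.43-fold higher, beside the 1.93-fold lower level of USMG5. UQCRH starts 82 bases from LRRC41, which was at 76.1 FPKM (72.2 to 80.1) and 95.4 FPKM (90.5 to 100.2). ATP5H starts 256 bases from KCTD2, at 13.7 FPKM (12.8 to 14.5) and 14.2 FPKM (13.2 to 15.2), and ATP5J starts 68 bases from GABPA.

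The order was the other way in 3 pairs. SDHD, at a log2 fold change of 0.15, starts 117 bases from TIMM8B, an import chaperone of the intermembrane space at -0.38. ATP5C1, at 0.08, starts 184 bases from KIN, at -0.51, and UQCR10, at -0.40, starts 362 bases from ZMAT5, at -0.60. The neighbour had the longer transcript in 7 of the 9 pairs in which both lengths are known, so the pairs are not free of the trend with length.

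In the other complexes of the chain no gene passed 1.5-fold higher either. Of 38 complex I genes 16 were more than 1.5-fold lower and 0 higher, with a median log2 fold change of -0.53, and of 12 complex IV genes that reached 1 FPKM 5 were lower and 0 higher, with a median of -0.57. Cytosolic ribosomal proteins, which are also short and abundant and have no part in respiration, had 20 of 77 genes lower, 0 higher and a median of -0.42, close to the -0.40 of the genes described here. For 71 of the 77 the limits were apart towards the lower level in PERK-KO cells. The 21 subunits of the vacuolar ATPase, a rotary proton pump related to ATP synthase, had a median of -0.08, with 1 lower and 1 higher. Their median transcript length was 1815 bases, known for 20 of the 21. By fragment equivalents 12 of 38 complex I genes, 4 of 12 complex IV genes and 11 of 77 ribosomal protein genes were more than 1.5-fold lower. The lists were not tested against each other.

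Lists of genes that serve the same complexes without being subunits had medians nearer 0, but longer transcripts. Median lengths were 1553 bases for assembly factors (known for 13 of 14) and 1630 for coenzyme Q synthesis (13 of 13). They were 2657 for other dehydrogenases that feed coenzyme Q (4 of 6) and 1481.5 for carriers and channels (6 of 7). Over the 33 of the 36 genes with a known length the median was 1121 bases. In the class of 1000 to 2000 bases the median log2 fold change was -0.07 for genes described here and -0.17 for others. The lists are thus not free of the trend with length. Of 14 assembly factors of complexes II, III and ATP synthase, 2 were more than 1.5-fold lower and 0 higher, with a median of -0.14. The 2 were C11orf83, a complex III assembly factor also called UQCC3, at 66.4 FPKM in WT cells (62.5 to 70.3) and 37.7 FPKM in PERK-KO cells (35.0 to 40.4), and C6orf57, the complex II assembly factor SDHAF4, at 27.0 FPKM (22.9 to 31.2) and 17.3 FPKM (13.9 to 20.8). Of 13 genes of coenzyme Q synthesis 0 passed 1.5-fold in either direction, with a median of -0.03. Among them COQ4 was at 27.0 FPKM in WT cells (25.02 to 29.0) and 18.5 FPKM in PERK-KO cells (16.7 to 20.3), whereas ADCK3, the kinase-like COQ8A, was at 31.0 FPKM (29.5 to 32.5) and 44.7 FPKM (42.8 to 46.7).

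The 6 other dehydrogenases that feed coenzyme Q had a median of -0.05. SQRDL, which oxidises sulphide, was more than 1.5-fold lower, at 1.97 FPKM in WT cells (1.46 to 2.48) and 1.196 FPKM in PERK-KO cells (0.769 to 1.62), but with overlapping limits. The 7 carriers of ADP, ATP and phosphate and the outer membrane channels had a median of -0.12, which was 0.13 by fragment equivalents, and 0 passed 1.5-fold by either measure.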

How the data were processed

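Polyadenylated RNA of 1 WT and 1 PERK-KO HEK293 culture was sequenced. The authors aligned reads to hg19 and deposited gene-level FPKM with confidence limits; the submitters' processing notes name TopHat2 2.0.13 and Cufflinks 2.2.1, and the gene annotation and library strandedness are not given in the sources used here. FPKM were used as deposited, with no pseudocount. Genes with at least 1 FPKM in a sample were compared by log2 ratio, with a limit of 1.5-fold and, separately, non-overlapping limits. SE of counting were taken from the limits. No replicates exist, so no test was run. Transcript lengths came from GENCODE (GRCh37), later than the authors' tables, matched by name and position for 83.4% of genes and 33 of the 36, not ATP5A1, ATP5E and UQCRB. Depth appears only as limit widths. Over 35 genes, the readthrough row left out, the median half-width was 5.14% of the value in WT and 5.40% in PERK-KO cells. Genes and lists were chosen with earlier results of these data known, and every gene found by the name rule is given with its values. Alternatives were the pseudocount, filter, scaling, threshold, membership and rows sharing a name. Scripts, checked on simulated data, used Python 3.11.15, numpy 2.4.6, pandas 2.3.3 and matplotlib 3.10.9.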

Additional observations from a re-analysis of the deposited data

How the results depend on the processing

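Of 100 values of the counts and medians under 16 alternatives, 77 stayed within 1.5 times for counts or within 0.11 log2 units for medians. Pseudocounts, filters, membership, repeated names and scaling to the median of all genes or the 75th percentile moved none of them. With the running median over transcript length subtracted, 2 genes were lower, and the medians were -0.063 over all genes of the list, 0.040 for complex II (sign changed), -0.039 for complex III and cytochrome c and -0.085 for ATP synthase. At 2-fold 1 gene was lower, the readthrough row, and at a looser limit of 0.32 on the log2 scale 21 were lower and 1 higher. The other 3 settings were chosen after seeing the data. With equal sums over all rows the medians were -0.19, -0.0098, -0.20 and -0.24 in the same order, and 6 genes were higher with limits apart. With equal sums without small RNA rows the medians were -0.17, 0.0096 (sign changed), -0.18 and -0.22, and 18 genes were lower and 6 higher with limits apart. Shares over all genes were not worked out for the length correction, the other thresholds or the limits under equal sums. The counts of genes at those settings thus have no background beside them. By fragment equivalents 3 genes were lower, and the medians were -0.17 over all, -0.18 for complex III and cytochrome c and -0.17 for ATP synthase. The cause of the gap between FPKM and fragment equivalents was not tested. Single genes moved beyond their counting error in 25 of 33 cases under the length correction, 33 of 36 under either equal-sum scaling and 16 of 36 by fragment equivalents. No paired analysis was possible because each genotype has 1 sample, and for the same reason no replicate could be left out.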
